A study of Homo sapiens with 6 samples.

Results

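The MAL and CMTM families are small membrane proteins built around the MARVEL domain, a bundle of membrane-spanning helices whose name joins MAL with vesicle trafficking and membrane linking. MAL2 carries cargo across polarized epithelial cells to the apical surface, MAL and plasmolipin (PLLP) organize lipid rafts and myelin membranes, and the chemokine-like factor proteins (CMTM) steer surface receptors through endocytosis and recycling. CMTM6 and CMTM4 are best known for protecting the immune checkpoint ligand PD-L1 from degradation, and CMTM3, CMTM7 and CMTM8 for promoting the uptake of the epidermal growth factor receptor. CMTM3 is also known as a gene that many carcinomas silence.

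The members were MAL, MAL2, PLLP, CMTM1, CMTM3, CMTM4, CMTM6, CMTM7 and CMTM8, 9 genes in all. They were chosen by family and by measured values, since MAL2 had risen and CMTM3 had fallen on these same arrays. The platform annotation gave a probe set to 7 of the 9, with 1 probe set each, among 15669 named genes and 16965 probe sets. MAL and PLLP are not analysed here. Because the values of MAL2 and CMTM3 chose the set, these 2 genes are described with no p-value, and where they are counted among calls the count is a description that supports nothing. The 5 other measured members were tested in limma's fit over all probe sets.

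The arrays measured total RNA from cultures of MDA-MB-231, a long-used cell line of human breast cancer of the triple-negative kind. All cells had been transduced with a lentivirus encoding a short hairpin RNA and were kept under 2.5 µg/ml puromycin in RPMI1640 to which 10% serum had been added. The hairpin was either the control shNCT or shS100A10_1 or shS100A10_5, which both target S100A10, and each of these 3 groups had 2 arrays. S100A10 is the small calcium-binding-family protein p11, the partner of annexin A2 at the plasma membrane. Whether the cells of a group were a pool or a clone is not stated, and the labels leave it unsaid whether replicate arrays stand for different cultures, so p-values and SDs measure only how these arrays vary, which may be technical.

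The array medians ran from 232 to 238. S100A10 itself had a log2 intensity of 16.47 ± 0.05 (SD, n = 2) in shNCT, 10.77 ± 0.25 with shS100A10_1 and 13.47 ± 0.37 with shS100A10_5, so the labelled knockdown was present on all 4 hairpin arrays and was deeper with shS100A10_1. All 5 markers of a mesenchymal-like line (VIM, CD44, AXL, ZEB1 and CAV1) lay above the array median on every array, and none of the 4 leukocyte, 2 endothelial or 2 fibroblast markers measured did. The 2 arrays of a group differed more with shS100A10_5 (SD of the log2 difference over all probe sets 0.36) than with shNCT or shS100A10_1 (0.29 each). The limma fit took 1 spread per probe set for all 3 groups, so its SEs do not reflect the wider spread with shS100A10_5. The arrays also differed in the relation of gene span to the value relative to the 6-array mean across 15669 genes. Spearman's rho was highest on replicate 2 of shS100A10_5 (0.247), where longer genes had higher values. It was lowest on replicate 1 of shS100A10_1 (-0.207), and ran from -0.135 to 0.035 on the rest. Deviations from a shared mean depend on each other, and genes are not independent replicates.

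MAL2 was higher on all 4 hairpin arrays than on both controls. Its intensity was 362 and 293 in shNCT, 1562 and 1439 with shS100A10_1, and 819 and 710 with shS100A10_5. The 3 groups did not overlap, and the group with the least S100A10 signal had the most MAL2 signal. A relation to the depth of the knockdown was not tested. On the log2 scale the group means were 8.35 ± 0.21, 10.55 ± 0.08 and 9.57 ± 0.15 (SD, n = 2 each). MAL2 was therefore 2.20 higher (SE 0.18, 4.60-fold) with shS100A10_1 and 1.23 higher (SE 0.18, 2.34-fold) with shS100A10_5. These were the rises of rank 4 and rank 60 among the 16965 probe sets. Both comparisons share the 2 control arrays, and in bulk RNA a change in the number of expressing cells and in RNA per cell cannot be told apart. Between the hairpins, shS100A10_5 was lower than shS100A10_1 by 0.98 on the log2 scale (difference -0.98, 95% interval -1.38 to -0.57). With each array left out in turn, the difference from the control stayed between 2.05 and 2.35 for shS100A10_1 and between 1.08 and 1.38 for shS100A10_5.

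CMTM3 was lower with shS100A10_5 and overlapped the controls with shS100A10_1. Its intensity was 645 and 755 in shNCT, 544 and 692 with shS100A10_1, and 253 and 155 with shS100A10_5. The 2 shS100A10_5 arrays lay below all others but also stood apart from each other more than the arrays of either other group. The group means on the log2 scale were 9.45 ± 0.16, 9.26 ± 0.25 and 7.63 ± 0.50 (SD, n = 2 each). CMTM3 was thus lower by 1.82 with shS100A10_5 (log2 difference -1.82, SE 0.24, 3.53-fold), the fall of rank 4 among all probe sets. With shS100A10_1 the log2 difference was -0.19 (SE 0.24, 95% interval -0.73 to 0.36), a fall of rank 3561. The level with shS100A10_5 lay 1.63 below that with shS100A10_1 (log2 difference -1.63, 95% interval -2.18 to -1.09). Unlike MAL2, CMTM3 thus differed most from the control with the hairpin that left more S100A10 signal. Without replicate 2 of shS100A10_5 the log2 difference from the control was -1.46, and without replicate 1 it was -2.17. CMTM3 has a short gene span, with only 25.1% of genes shorter, and its log2 difference with shS100A10_5 was -1.77 once a smooth trend on gene span had been removed from every array.

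**Figure D1:**
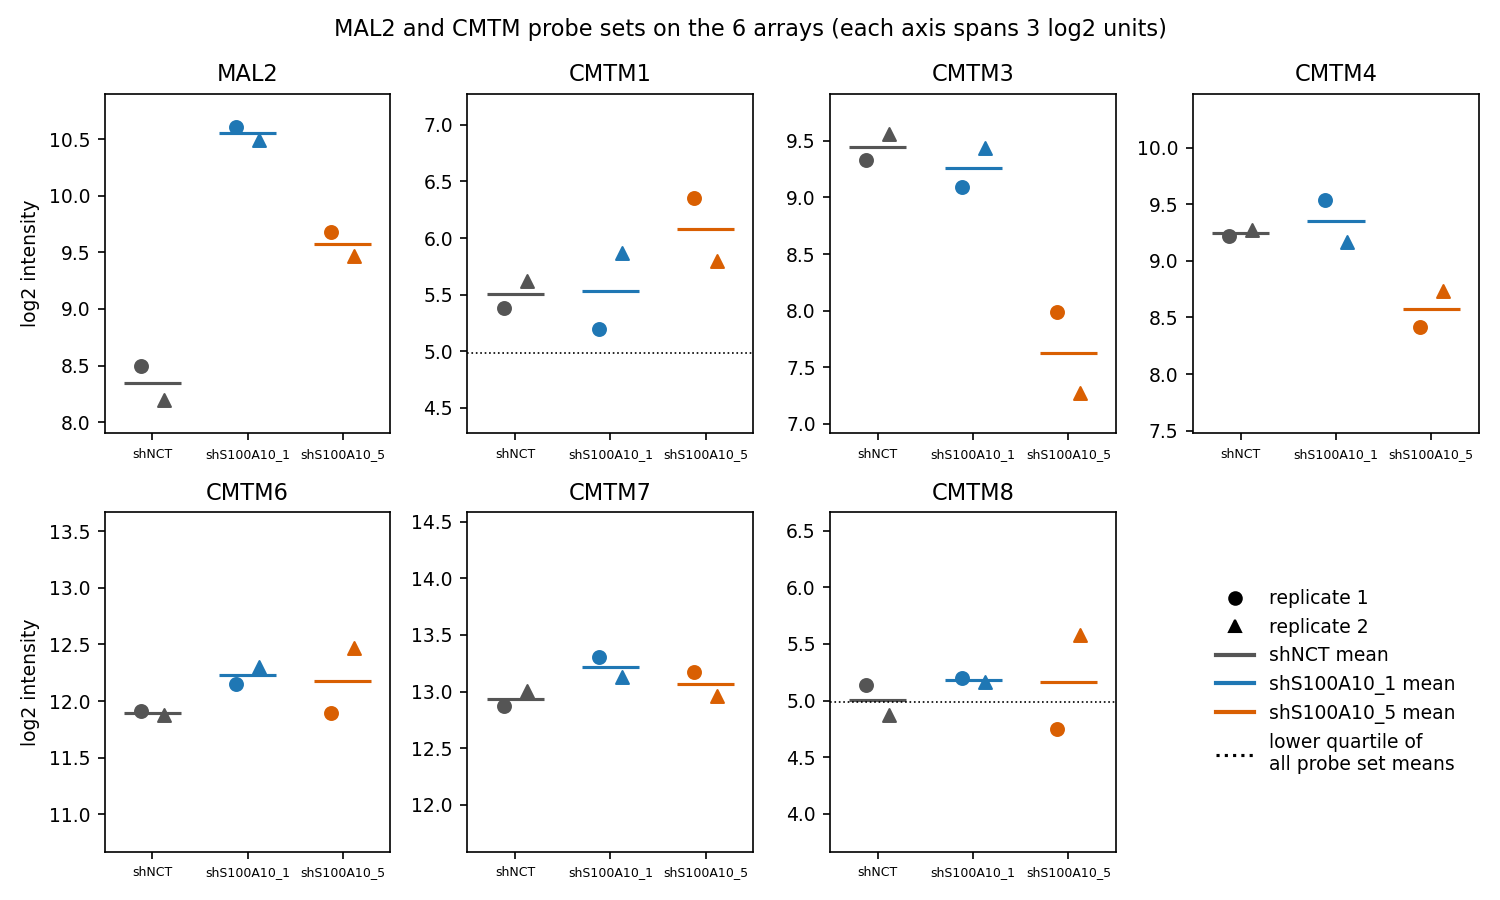
Log2 intensity of the 7 measured members on each array (y axis, 3 log2 units in each panel; x axis, group); points are single arrays, lines are group means and the dotted line is the lower quartile of all probe set means. MAL2 separates the 3 groups, CMTM3 and CMTM4 are lowest on the shS100A10_5 arrays, and CMTM8 straddles the dotted line at 4.98.

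CMTM4, which overlaps CMTM3 in the same gene cluster, was the only other member to have both shS100A10_5 arrays below every other array. Its intensity was 597 and 617 in shNCT, 745 and 576 with shS100A10_1, and 341 and 426 with shS100A10_5. The log2 difference with shS100A10_5 was -0.67 (SE 0.20, 1.59-fold), which did not pass the threshold (limma, adjusted p = 0.0897). With shS100A10_1 it was 0.11 (SE 0.20; limma, adjusted p = 0.933). The difference between the hairpins was -0.78 (SE 0.20; limma, adjusted p = 0.0627). That last value passed in 3 other settings at the same threshold, with an adjusted p of 0.0394 when only probe sets above the lower quartile of means were tested, 0.0307 when limma's variance prior followed intensity, and 0.0461 with the gene span trend removed. Counting a threshold of 0.1 as well, it passed in 4 of 17 alternatives, in none of the 6 that left out an array, and its adjusted p ran up to 0.343. CMTM4 is a long gene, with 82.1% of genes shorter.

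The RefSeq gene table places CMTM3 wholly inside the interval of CMTM4, on the opposite strand. Probe positions were not used here, so whether signal of 1 gene reaches the probe set of the other was not tested. The promoter windows of the pair are shown because these are the 2 members that were lowest with the same hairpin. They are 300 bases long, lie mostly upstream of a transcript start, come from RefSeq on GRCh38.p14, and carry the GC box GGGCGG in capitals on either strand. For CMTM3 the table holds 3 windows, of which the one at chr16:66604481-66604780 on the plus strand is given, and the CMTM4 window is chr16:66696694-66696993 on the minus strand.
CMTM3: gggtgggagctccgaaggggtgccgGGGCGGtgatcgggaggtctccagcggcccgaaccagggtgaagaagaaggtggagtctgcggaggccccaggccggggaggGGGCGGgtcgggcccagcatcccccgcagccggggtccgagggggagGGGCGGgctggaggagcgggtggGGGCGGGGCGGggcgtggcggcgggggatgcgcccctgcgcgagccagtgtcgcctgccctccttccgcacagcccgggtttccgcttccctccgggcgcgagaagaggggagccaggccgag
CMTM4: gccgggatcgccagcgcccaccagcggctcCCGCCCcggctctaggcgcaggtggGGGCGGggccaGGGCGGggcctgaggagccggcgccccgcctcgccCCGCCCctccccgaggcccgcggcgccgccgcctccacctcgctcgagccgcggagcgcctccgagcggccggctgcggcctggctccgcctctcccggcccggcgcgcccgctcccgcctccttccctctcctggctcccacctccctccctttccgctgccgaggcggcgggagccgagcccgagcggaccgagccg

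The printed CMTM3 window held 5 GC boxes, of which a pair overlap, and the CMTM4 window held 4. Of the other CMTM3 windows, the overlapping one that starts at 66604454 held 5, and the one that starts at 66603746 held 0 and had 10 CpG dinucleotides, so the count depends on the transcript start taken. A GC box was present in 45% of the 35116 promoter windows of the same length. The windows of CMTM6, CMTM7 and CMTM8 held 5, 5 and 6, and that of CMTM1 held 0. The windows shown had 31 CpG dinucleotides for CMTM3 and 45 for CMTM4, against a median of 14 over all windows. The windows of CMTM1, CMTM3, CMTM4, CMTM6, CMTM7 and CMTM8 held 0 matches to the TATA box motif TATAAA, the CCAAT box motif CCAAT and the E-box motif CACGTG, which occurred in 11.5%, 34.6% and 7.26% of all windows on either strand. They also held 0 matches to an E2F-type motif, searched as TTTGGCGC and as TTTCCCGC and as TTTGCCGC and as TTTCGCGC, which occurred in 3.31%.

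The third measured member of that cluster, CMTM1, is expressed mainly in testis. It was dim here, with 41.7 and 49.1 in shNCT, 36.7 and 58.3 with shS100A10_1, and 81.9 and 55.6 with shS100A10_5. The shS100A10_5 arrays lay above the controls but overlapped the shS100A10_1 arrays. The log2 difference with shS100A10_5 was 0.57 (SE 0.26; limma, adjusted p = 0.238) and with shS100A10_1 it was 0.03 (SE 0.26; limma, adjusted p = 0.991). With 1 array left out, the first of these ran from 0.29 without replicate 1 of shS100A10_5 to 0.86 without its replicate 2. RefSeq also lists CKLF-CMTM1, a read-through transcript whose interval contains CMTM1, so the signal of the 2 could be shared. Its own probe set had log2 differences of -0.09 and -0.24 (SE 0.18 each).

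CMTM6, CMTM7 and CMTM8 lie next to each other in a second cluster, and none of the 3 passed the threshold in any comparison. CMTM6 intensity was 3849 and 3755 in shNCT, 4553 and 5049 with shS100A10_1, and 3816 and 5657 with shS100A10_5. Both shS100A10_1 arrays lay above the controls, while replicate 1 of shS100A10_5 lay between them. The log2 differences were 0.33 (95% interval -0.13 to 0.80) and 0.29 (-0.17 to 0.75), with limma adjusted p of 0.735 and 0.474. With shS100A10_5 the difference was 0.0055 without its replicate 2 and 0.57 without its replicate 1.

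CMTM7, a receptor-uptake gene of the same cluster, was bright, with 92.6% of probe sets dimmer, and had the smallest range of the 7 measured members. Its intensity was 7478 and 8234 in shNCT, 10107 and 8976 with shS100A10_1, and 9233 and 7956 with shS100A10_5. The log2 differences were 0.28 (95% interval -0.11 to 0.67) and 0.13 (-0.27 to 0.52), with limma adjusted p of 0.743 and 0.731. With shS100A10_5 it ran from 0.02 to 0.23 as arrays were left out. The whole range over the 6 arrays was 0.43 on the log2 scale, smaller than that of most probe sets, since only 24.1% of them had a smaller one.

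CMTM8 was near the dim end, with 35.2 and 29.3 in shNCT, 36.8 and 35.8 with shS100A10_1, and 26.9 and 47.9 with shS100A10_5. The 2 shS100A10_5 arrays held both the lowest and the highest value. The log2 differences were 0.18 (95% interval -0.39 to 0.74) and 0.16 (-0.40 to 0.72), with limma adjusted p of 0.919 and 0.768. With shS100A10_5 the difference was -0.26 without its replicate 2 and 0.58 without its replicate 1. A difference as large as that of MAL2 with either hairpin, or of CMTM3 with shS100A10_5, lies outside these intervals for all 3 genes, while smaller changes lie within them.

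**Figure D2:**
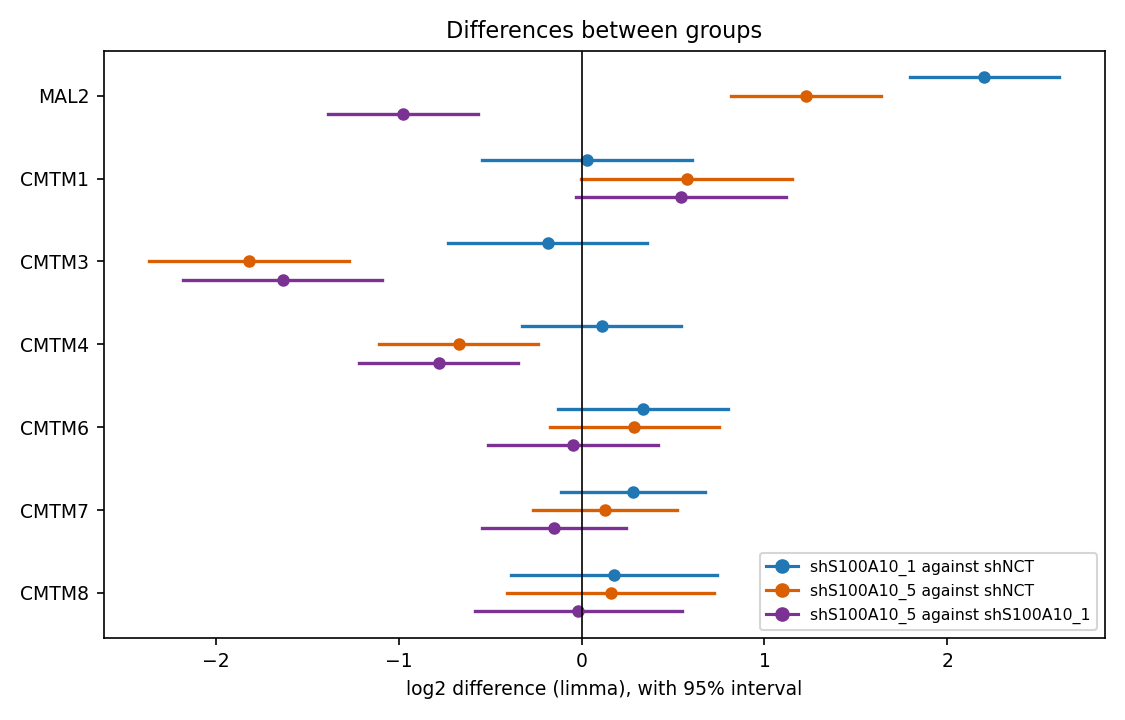
Log2 difference of each measured member (x axis) with its 95% interval from limma, for each hairpin against shNCT and for shS100A10_5 against shS100A10_1. The points of MAL2 lie at 2.20, 1.23 and -0.98 and those of CMTM3 at -0.19, -1.82 and -1.63, while the intervals of CMTM6, CMTM7 and CMTM8 all span 0. The intervals of CMTM4, not adjusted for the number of probe sets, lie below 0 with shS100A10_5 (-1.11 to -0.24) and between the hairpins (-1.22 to -0.35).

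Counted over the 7 measured members, 1 of 7 passed an adjusted p of 0.05 with shS100A10_1, against 0.189% of all probe sets, and that member was MAL2. With shS100A10_5 it was 2 of 7, MAL2 and CMTM3, against 3.18%. The same 2 genes were those called between the hairpins, against 2.91%. For the mean of both hairpins it was MAL2 alone, 1 of 7, against 0.307%. Since these 2 genes chose the set, nothing is read from these counts, and of the 5 other members 0 passed in any comparison by limma. At an unadjusted p under 0.05 by limma, those 5 gave 0 calls with shS100A10_1, against 8.44% of all probe sets. CMTM4, lower, was the 1 of 5 with shS100A10_5 and between the hairpins, against 21% and 19.9%, so this count was close to that of all probe sets. The counts that include MAL2 and CMTM3 fell to 0 with shS100A10_5 without either control array or its own replicate 2, and to 0 between the hairpins without that same replicate. The comparison of 1 array with 2 takes the lone array to vary like the other groups.

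Hairpin arrays stood clear of both controls for 4 of 7 members with shS100A10_1, all higher (MAL2, CMTM6, CMTM7 and CMTM8), against 42.4% of all probe sets. With shS100A10_5 it was 4 of 7, with MAL2 and CMTM1 higher and CMTM3 and CMTM4 lower, against 50.5%. Between the hairpins it was 3 of 7, all lower with shS100A10_5 (MAL2, CMTM3 and CMTM4), against 49%. These counts include the 2 genes that chose the set, so nothing is read from them. Of the 5 others, 3 were higher with shS100A10_1, 1 higher and 1 lower with shS100A10_5, and 1 lower between the hairpins. Without MAL2 and CMTM3, the 5 other members had a median log2 difference of 0.18 with shS100A10_1 and 0.16 with shS100A10_5, where all probe sets had 0.01 and 0.02. Both medians are the values of CMTM8, the dim member whose shS100A10_5 difference changed sign when an array was left out.

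In chromosomal order, no measured neighbour of MAL2 or CMTM3 passed with either hairpin by limma. MAL2 lies on chromosome 8, and its 3 nearest measured genes on either side were considered. With shS100A10_1 these neighbours ran from -0.04 for TAF2, a subunit of the basal transcription factor TFIID, to 0.95 for SAMD12 (limma, adjusted p = 0.330). TNFRSF11B, the decoy receptor osteoprotegerin, had 0.79 with shS100A10_1 (limma, adjusted p = 0.190) and 0.61 with shS100A10_5 (limma, adjusted p = 0.097). COLEC10, CCN3 and DSCC1 had differences of 0.36, 0.05 and 0.17 with shS100A10_1 and of -0.09, 0.30 and 0.0004 with shS100A10_5.

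Around CMTM3, the neighbours that start before it had, with shS100A10_5, 0.57 for CMTM1, -0.12 for CMTM2 and -0.67 for CMTM4. The interval of CMTM4 contains CMTM3, so CMTM4 precedes it only by its start. Those that start after CMTM3 were DYNC1LI2, a dynein light intermediate chain (-0.53), the NEDD8-activating subunit gene NAE1 (-0.23) and the carbonic anhydrase gene CA7 (0.47). None passed by limma with this hairpin, with adjusted p from 0.0897 to 0.759.

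**Figure D3:**
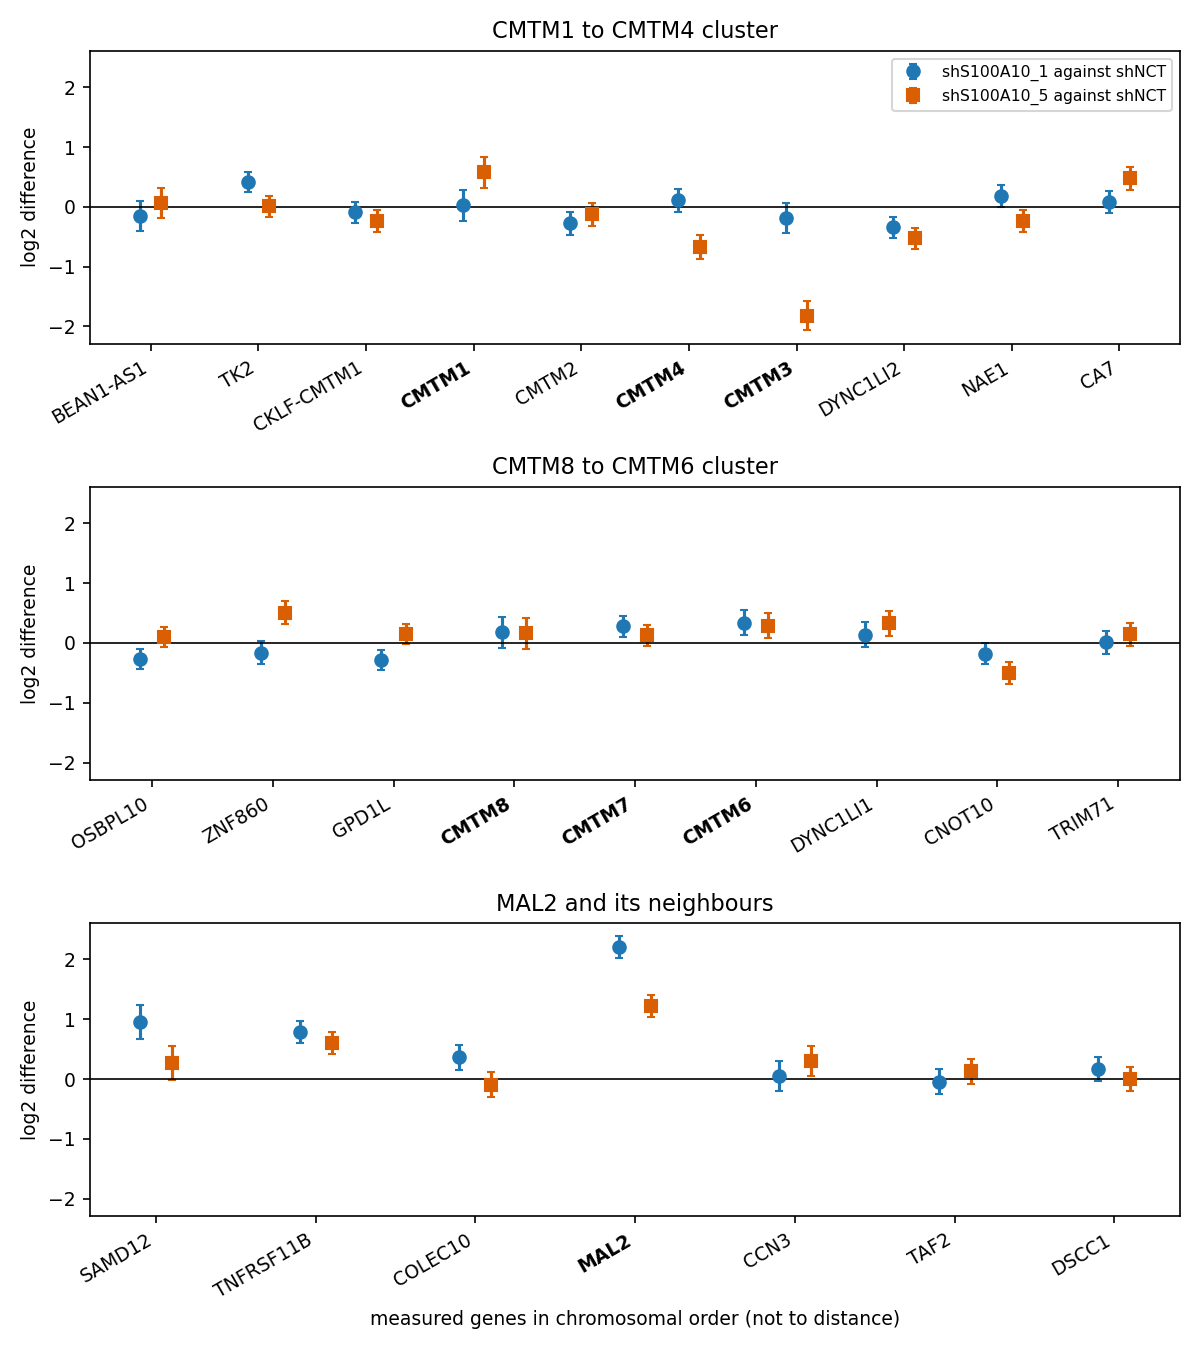
Log2 difference with its SE for each hairpin against shNCT (y axis) over measured genes in chromosomal order (x axis, not to distance), for the CMTM1 to CMTM4 cluster, the CMTM8 to CMTM6 cluster and the surroundings of MAL2; members are in bold. CMTM3 at -1.82 and MAL2 at 2.20 and 1.23 stand beyond their neighbours, of which SAMD12 at 0.95 comes nearest in size.

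The genes whose pattern came closest to that of MAL2 over the 6 arrays were CST1, a cysteine protease inhibitor, AGMO, which cleaves ether lipids, the cytokine TNFSF15, the disulfide isomerase AGR2 and the adhesion gene MPZL2. Likeness was the root mean square distance of log2 values relative to the control mean, over 15446 genes, and these 5 lay at 0.24 to 0.29 with Pearson's r of 0.948 to 0.982. Each of them was higher with shS100A10_1 (1.80 to 2.60) than with shS100A10_5 (1.08 to 1.55), as was MAL2. Nearest to CMTM3 were SHARPIN, a subunit of the linear ubiquitin ligase, the replicative DNA ligase LIG1, the Wnt cofactor PYGO2, the aminoacylase ACY1 and HCFC1R1. They lay at 0.24 to 0.27, with r of 0.953 to 0.979. Their log2 differences ran from -1.63 to -1.47 with shS100A10_5 and from -0.51 to -0.23 with shS100A10_1. With only 6 arrays in 3 groups, and all genes measured on the same arrays, such values describe the pattern and carry no test.

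The list of other genes with a MARVEL domain held the occludin group of tight junctions, the synaptophysin and synaptogyrin group of vesicles, and MALL, MYADM and CMTM2. Of 15 measured, 0 passed with either hairpin or between them by limma, and at an unadjusted p under 0.05 there was 1 with shS100A10_1 and 2 with shS100A10_5, all higher, and 3 higher and 1 lower between the hairpins. Over all probe sets that cut took 8.44%, 21% and 19.9%. The median log2 differences were 0.04, -0.04 and 0.005, against 0.01, 0.02 and 0.02 for all probe sets. The tight junction gene OCLN came first by p when both hairpins were averaged. Its intensity was 1364 and 1550 in shNCT, 1979 and 1799 with shS100A10_1, and 2192 and 3604 with shS100A10_5. All hairpin arrays lay above the controls, with log2 differences of 0.38 (SE 0.23; limma, adjusted p = 0.734) and 0.95 (SE 0.23; limma, adjusted p = 0.0568). The vesicle gene SYPL1 had 0.34 and 0.49, and its paralog SYP -0.35 and -0.28 (SE 0.24 and 0.19), and none of these passed. Without replicate 1 of shS100A10_5, OCLN, MARVELD2 and SYPL1 passed with that hairpin, 3 of 15, and OCLN and MARVELD2 between the hairpins, where 5.86% and 3.87% of all probe sets did in the same setting. MARVELD2, another tight junction gene, lies outside the naming rule and is named after its values were seen. With all arrays it had -0.49, 0.71 and 1.20 in the 3 comparisons (SE 0.28; limma, adjusted p = 0.708, 0.182 and 0.0518).

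The list of apical and raft trafficking genes held MAL2's partners of the TPD52 family, the small GTPases and SNARE proteins of apical delivery, and raft scaffolds. Of 24 measured, 4 passed with shS100A10_5 by limma, 3 higher and 1 lower, where 3.18% of all probe sets did. With shS100A10_1 0 passed by limma, and 4 had an unadjusted p under 0.05, all of them higher, against 8.44% of all probe sets. At the same unadjusted cut 6 were higher and 1 lower with shS100A10_5, against 21% of all probe sets. The medians were 0.18 with shS100A10_5 and 0.04 with shS100A10_1, where all probe sets had 0.02 and 0.01. Nothing particular to the list is read from these medians. RAB17, a GTPase of epithelial transcytosis, rose with shS100A10_5. Its intensity was 211 and 176 in shNCT, 285 and 234 with shS100A10_1, and 631 and 594 with shS100A10_5. The 2 shS100A10_5 arrays lay far above all others, with a log2 difference of 1.66 (SE 0.19; limma, adjusted p = 0.00563) against 0.42 with shS100A10_1 (limma, adjusted p = 0.579). Unlike MAL2, RAB17 was thus higher with shS100A10_5 than with shS100A10_1, by 1.25 (SE 0.19; limma, adjusted p = 0.0113).

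LGALS9, the glycan-binding galectin-9 of apical sorting, rose by 1.11 with shS100A10_5 (SE 0.23; limma, adjusted p = 0.0348), with 125 and 122 on its arrays against 44.8 and 73.3 in shNCT. The raft protein gene STOM rose by 1.09 (SE 0.22; limma, adjusted p = 0.0338), from 312 and 275 to 507 and 771. The raft scaffold gene FLOT1 fell with shS100A10_5, from 6380 and 6923 to 3920 and 2828 (log2 difference -0.997, SE 0.20; limma, adjusted p = 0.0325). LGALS9 and FLOT1 also differed between the hairpins, by 1.46 and -0.91 (limma, adjusted p = 0.0135 and 0.0405). SNAP23, a SNARE of plasma membrane fusion, had 0.61 and 0.52 with the 2 hairpins (limma, adjusted p = 0.308 and 0.120). These calls changed with the arrays left out. Without replicate 2 of shS100A10_5 0 of 24 passed by limma, as without replicate 2 of shNCT, and without replicate 1 of shNCT RAB17 alone passed. In these 3 settings only 3, 12 and 22 of all 16965 probe sets passed. Between the hairpins 3 of 24 passed, against 2.91% of all probe sets. These became 0 without replicate 2 of shS100A10_5, RAB17 alone without replicate 1 of shS100A10_1, and LGALS9 alone without its replicate 2, where 7, 83 and 131 of all probe sets passed.

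The list of CMTM clients and endocytosis genes gave 0 calls of 16 measured with either hairpin or between them by limma. At an unadjusted p under 0.05, 2 were higher with shS100A10_1, 3 higher and 1 lower with shS100A10_5, and 1 lower between the hairpins, against 8.44%, 21% and 19.9% of all probe sets. CD58, an adhesion ligand for T cells that CMTM6 is known to stabilize, had intensities of 1183 and 762 in shNCT, 1477 and 1720 with shS100A10_1, and 1598 and 1761 with shS100A10_5. All hairpin arrays were above both controls, at 0.75 above the control on the log2 scale with shS100A10_1 and 0.82 with shS100A10_5 (SE 0.22 for either; limma, adjusted p = 0.342 and 0.0738). The early endosome genes EEA1 (0.42 and 0.71) and RAB5A (0.26 and 0.45) did not pass either, with limma adjusted p of 0.067 or above. Without replicate 1 of shS100A10_5, EEA1 passed with that hairpin, 1 of 16, against 5.86% of all probe sets. CD274, which encodes PD-L1 and was added after its values were seen, had 0.09 and -0.27 (95% intervals -0.30 to 0.48 and -0.66 to 0.12).

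**Figure D4:**
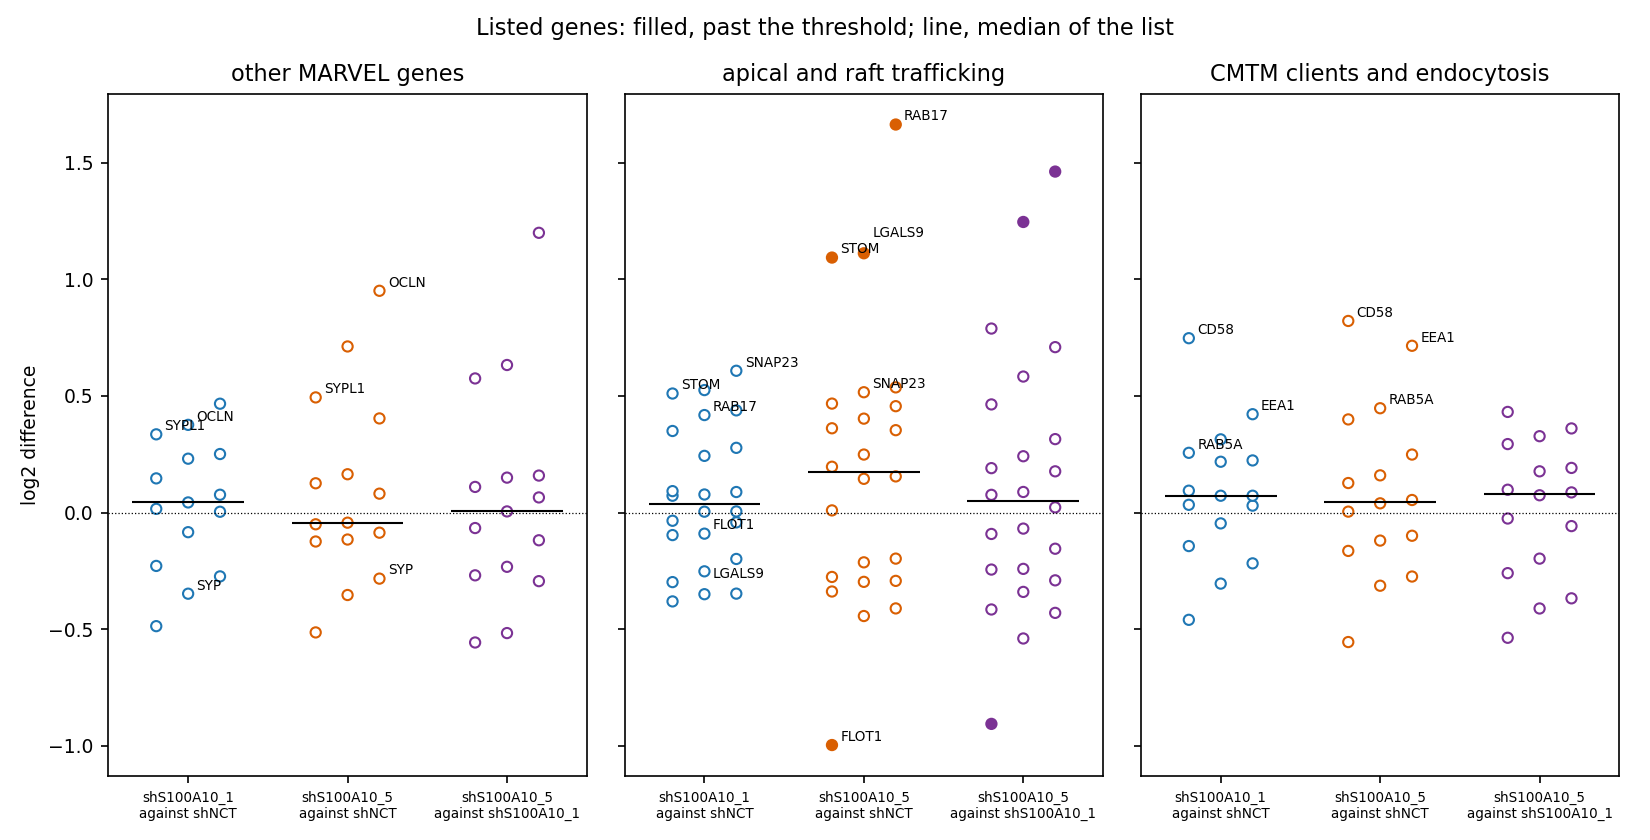
Log2 difference (y axis) of each measured gene of the 3 lists in each comparison (x axis); filled points passed an adjusted p of 0.05 and lines are medians. The filled points are RAB17, LGALS9, STOM and FLOT1 for shS100A10_5 against shNCT, and RAB17, LGALS9 and FLOT1 between the hairpins.

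Of 7 luminal epithelial markers, ESR1 and PGR were not analysed here, and of the 5 measured, 0 passed in any comparison by limma. At an unadjusted p under 0.05 there was 1 higher and 0 lower with shS100A10_1, and 1 higher and 1 lower with shS100A10_5, against 8.44% and 21% of all probe sets. EPCAM, an epithelial adhesion gene, and the keratin gene KRT19 lay above the array median on every array and are named here after their values were seen. EPCAM had log2 differences of 0.63 and 0.72 (limma, adjusted p = 0.326 and 0.0624) and KRT19 of -0.25 and -0.81 (limma, adjusted p = 0.822 and 0.0618). The summed luminal intensity ran from 13848 to 15150 in shNCT, 12079 to 13722 with shS100A10_1 and 8281 to 10600 with shS100A10_5. Most of that sum was KRT19 alone, at 12756 and 14043 in shNCT and 9081 and 6380 with shS100A10_5, while EPCAM went from 937 and 935 to 1366 and 1730. The part of these markers in the MAL2 values was not tested.

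**Figure D5:**
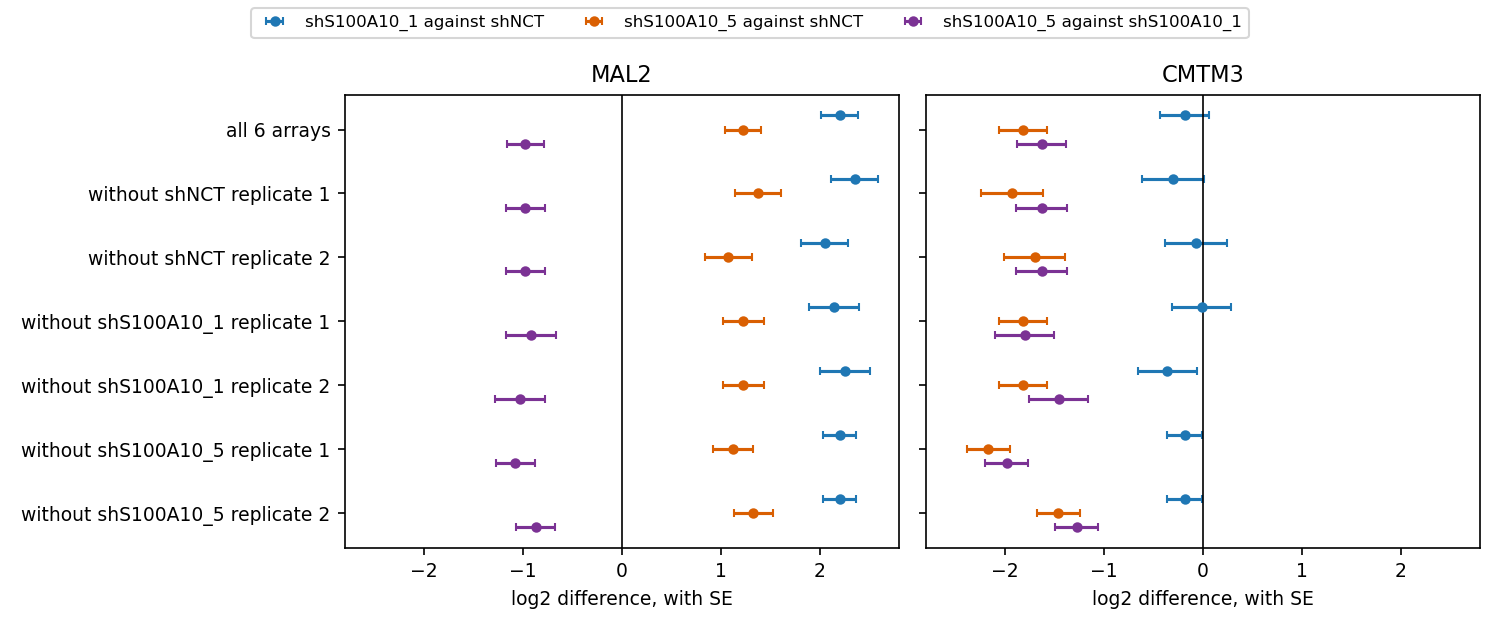
Log2 differences of MAL2 and CMTM3 (x axis, bars show the SE) with all 6 arrays and without each array in turn (y axis), for the 3 pairwise comparisons. MAL2 against shNCT stays between 2.05 and 2.35 for shS100A10_1 and between 1.08 and 1.38 for shS100A10_5, and CMTM3 with shS100A10_5 between -2.17 and -1.46.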

How the data were processed

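Biotin-labelled total RNA of 6 samples was hybridized to cartridge arrays of the whole-transcript type, as the labels' protocols say. The deposited table gives each probe set a normalized linear intensity on each array, made by the authors with Transcriptome Analysis Console, per the submitters' processing notes. For its version, background correction, summarization, normalization and genome build the entry is: not given in the sources used here. Detection calls and scan dates were not used here, so neither background level nor batch was tested. The number of arrays limits the precision.

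The log2 of each intensity was taken without renormalizing. Group means were estimated from the 6 arrays together by limma 3.58.1 under R 4.3.3 (lmFit, then eBayes, 3 residual and 7.16 prior degrees of freedom), with two-sided contrasts and Benjamini-Hochberg adjustment over all 16965 probe sets at 0.05. The fit was checked on simulated data. Probe sets took their gene from the platform annotation, 15674 with 1 symbol and 1291 with none, and all 15674 were matched by gene identifier to RefSeq (GRCh38.p14), used for names, gene span and gene order. The brightest probe set stood for a gene.

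The members and the gene lists were chosen with earlier results of these data known. Named genes were all measured members and S100A10, up to 6 genes of each list past the threshold and the 3 ranked first by p in the averaged-hairpin comparison, the 5 genes nearest in pattern to MAL2 and to CMTM3, and their 3 nearest measured neighbours on either side. Alternatives were other normalizations, filters, variance priors, weighted arrays, a replicate block, only the groups compared, 1 row per gene, another threshold, a gene span trend removed and each array left out.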

Additional observations from a re-analysis of the deposited data

Results flagged for a closer look

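MAL2 and CMTM3 differed between the 2 hairpins as well as from the control. For MAL2 the value with shS100A10_5 minus that with shS100A10_1 was -0.98 on the log2 scale, and for CMTM3 it was -1.63. Both values come from the arrays that chose these 2 genes, so they are a description with no test. MAL2 was above the control with both hairpins, while CMTM3 stood below it by more than the spread of the arrays with shS100A10_5 only. Of the 5 other measured members, 0 differed between the hairpins by limma, with CMTM4, at an adjusted p of 0.0627, nearest to the threshold and past it at an unadjusted p under 0.05. Without replicate 2 of shS100A10_5, the value of CMTM3 was -1.28. With arrays left out in turn, MAL2 ran from -1.08 to -0.87 and CMTM3 from -1.99 to -1.28.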

How the results depend on the processing

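The number of members called was 1 with shS100A10_1, 2 with shS100A10_5, 2 between the hairpins and 1 for the mean of both. Each of these calls is MAL2 or CMTM3, whose values chose the set, so how the counts hold across settings is a description and no support. With arrays left out in turn it was 1 throughout for shS100A10_1, and ran from 0 to 2 for shS100A10_5, from 0 to 2 between the hairpins and from 0 to 1 for the mean. Letting the variance prior follow intensity, the mean gave 2, CMTM3 being the added one. The other settings kept each count within 1.5 times, and CMTM4 was the gene that joined between the hairpins in 4 of them and with shS100A10_5 at an adjusted p under 0.1. No called value of a member changed sign in any setting. Over all probe sets the counts ran from 8 to 98, 3 to 1454, 7 to 1144 and 6 to 218, against 32, 539, 494 and 52.

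Same-numbered arrays of shNCT and of either hairpin did not deviate together (correlations -0.02 and -0.03). Those of the 2 hairpins did so weakly (0.19). The labels do not say what the numbers stand for, and a batch linked to them was not tested. The replicate block left the member counts at 1, 2, 2 and 1, with 33, 625, 561 and 60 probe sets called in all. CMTM1 and CMTM8 lie near the lower quartile of intensity. Detection calls were not used, so whether their signal exceeded background was not tested, which limits what their values can show.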
